A study of Homo sapiens with 6 samples.

Results

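Ribonucleotide reductase and the enzymes around it that set the supply of deoxynucleoside triphosphates (dNTPs) were followed as 9 genes: RRM1, RRM2, RRM2B, TK1, TYMS, DUT, DCK, SAMHD1 and DTYMK. They were chosen by gene name, because ribonucleotide reductase needs iron, and they are 9 of the 62252 genes with a transcript in the files and 9 of the 26074 with enough counts to test. RNA came from K562, an established human erythroleukemia line grown in suspension. The DMSO group, 3 libraries, had received solvent alone, and the Chelator group, 3 libraries, had received 10 µM of the iron chelator 21H7 overnight, with solvent volume matched. The labels name no gene edit in either group, and all 6 libraries came from the same line, so the results describe 1 line at 1 dose and 1 exposure. PolyA RNA was read as paired ends, and each library held from 78.6 M to 101 M estimated counts (M, mega).

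Ribonucleotide reductase turns ribonucleotides into deoxyribonucleotides, and each active enzyme pairs a large catalytic subunit, RRM1, with a small subunit that holds a diiron center and a tyrosyl radical. RRM2 is the small subunit of dividing cells and RRM2B the one linked to DNA damage and to resting cells. Thymidylate has further routes: TYMS makes it from dUMP with a folate cofactor, TK1 salvages thymidine, DTYMK carries dTMP on to dTDP, and DUT removes dUTP and supplies dUMP. DCK salvages deoxycytidine and the purine deoxynucleosides, and SAMHD1 breaks dNTPs down. None of these roles was measured here, where the readout is RNA.

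SAMHD1 RNA fell to 0.380 of its DMSO level, RRM2 and TK1 rose modestly, DUT fell modestly, and RRM1, RRM2B, TYMS, DCK and DTYMK did not pass the test. By the DESeq2 Wald test, with p-values adjusted over all genes, 2 of the 9 rose and 2 fell at an adjusted p under 0.05, beside 19.5% and 18.3% of all 24542 genes with an adjusted p (37.7% in either direction). All 9 belong to the 10341 better counted genes, those averaging 500 normalized counts or more, of which 61.6% passed in either direction, so 4 of 9 is no larger a share. SAMHD1 was the 1 member that also had an absolute log2 fold change above 1, which 10.8% of all genes reached, 8.18% higher and 2.6% lower. Rises were thus 75.9% of calls, or 58.7% when log2 fold changes were centred on their mean over all genes, a scaling under which 0 members passed higher and 6 lower. Normalized counts did not overlap between groups for 6 of the 9, RRM2 and TK1 higher and RRM1, DUT, DCK and SAMHD1 lower, and the same held for 49.2% of all genes (25.5% higher, 23.7% lower). The median log2 fold change of the 9 was -0.055, and that of all genes 0.016. Less RNA per cell and fewer cells in the phase of the cycle that expresses a gene cannot be told apart in RNA from whole cultures.

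**Figure D1:**
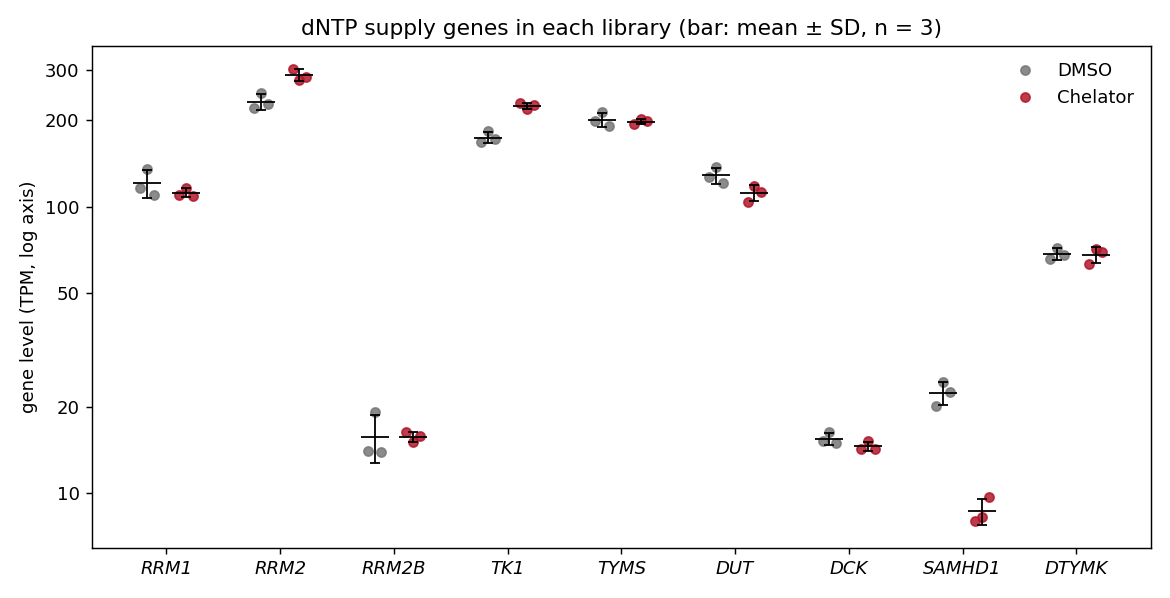
Level of each of the 9 genes in each library, in TPM, a length-corrected share of the library, on a log axis, with DMSO libraries in grey and Chelator libraries in red, and a bar for the mean ± SD of 3 libraries. SAMHD1 lies between 20.2 and 24.3 TPM in DMSO and between 8.004 and 9.71 TPM in Chelator, while RRM2 and TK1 are higher in every Chelator library than in any DMSO library.

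The DNA just upstream of the start site is printed for the genes that changed, because the changed members include several that are usually expressed in S phase, and because transcripts from the 2 start sites of DUT are given separately below. Each window is 250 bases from RefSeq on GRCh38.p14, read 5′ to 3′ on the strand of the gene and ending at the base before the start site. Capitals mark CCAAT, or ATTGG where it lies on the other strand, and the E2F motif forms TTTCCCGC, TTTCGCGC, TTTGCCGC and TTTGGCGC on either strand. The RefSeq start of the downstream DUT window lies 94 bases after the annotated start of DUT-202, so that window contains it, and that of the upstream one 19 bases after the start of DUT-205. In these windows no CCAAT match overlapped an E2F match.
SAMHD1, minus strand, chr20:36951709-36951958: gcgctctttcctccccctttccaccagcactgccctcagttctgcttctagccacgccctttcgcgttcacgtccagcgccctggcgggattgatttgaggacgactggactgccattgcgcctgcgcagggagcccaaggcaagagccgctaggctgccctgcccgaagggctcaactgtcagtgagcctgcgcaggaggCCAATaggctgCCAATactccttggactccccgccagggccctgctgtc
RRM2, plus strand, chr2:10122489-10122738: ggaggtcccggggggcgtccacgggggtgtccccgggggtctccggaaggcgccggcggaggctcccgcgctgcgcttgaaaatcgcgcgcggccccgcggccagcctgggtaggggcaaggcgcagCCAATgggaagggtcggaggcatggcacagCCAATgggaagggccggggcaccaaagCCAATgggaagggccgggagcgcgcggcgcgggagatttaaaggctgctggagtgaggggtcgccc
TK1, minus strand, chr17:78187053-78187302: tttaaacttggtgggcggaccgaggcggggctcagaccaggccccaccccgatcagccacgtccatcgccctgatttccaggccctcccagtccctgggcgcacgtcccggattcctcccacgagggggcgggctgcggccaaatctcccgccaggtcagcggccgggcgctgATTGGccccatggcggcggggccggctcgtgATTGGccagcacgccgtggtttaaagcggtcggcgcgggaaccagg
DUT, downstream start, plus strand, chr15:48331947-48332196: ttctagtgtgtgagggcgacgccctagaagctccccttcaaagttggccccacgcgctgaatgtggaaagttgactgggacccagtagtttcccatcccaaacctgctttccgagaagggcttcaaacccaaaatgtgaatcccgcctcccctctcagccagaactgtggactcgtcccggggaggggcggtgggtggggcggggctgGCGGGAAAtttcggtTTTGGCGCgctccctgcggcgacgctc
DUT, upstream start, plus strand, chr15:48331174-48331423: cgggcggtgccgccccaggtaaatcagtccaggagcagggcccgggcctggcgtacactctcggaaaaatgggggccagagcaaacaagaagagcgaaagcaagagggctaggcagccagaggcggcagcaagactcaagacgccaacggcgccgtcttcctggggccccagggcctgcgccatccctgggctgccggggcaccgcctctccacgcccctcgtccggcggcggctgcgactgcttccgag

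The RRM2 window held 3 CCAAT matches and those of TK1 and SAMHD1 held 2 each, against at least 1 in 32.0% of all RefSeq windows of this length. The window before the downstream DUT start held 2 E2F matches, and 2.79% of all windows hold any. The window before the upstream DUT start held neither. The genes that did not pass were mixed as well, with 2 CCAAT matches for DTYMK, 1 for RRM1, 1 E2F match for TYMS and none of either for DCK; RRM2B was not searched. A match is only a run of letters, and genes that rose (RRM2, TK1) and a gene that fell (SAMHD1) share the CCAAT match.

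RRM1 (chr11:4094707-4138932, plus strand, GRCh38), the large subunit, stood at 116, 135 and 110.1 TPM with DMSO and 109.6, 116 and 109 TPM with the chelator. The DMSO libraries ranged more widely than the Chelator libraries, and the groups overlapped. The log2 fold change was -0.14 (SE 0.06399) with a DESeq2 adjusted p of 0.0786, and its 95% interval, not adjusted for the number of genes, ran from -0.26 to -0.012. With DMSO replicate 3 left out the DESeq2 adjusted p came to 0.0432, at a log2 fold change of -0.17. Centring took it to -0.31 (DESeq2 adjusted p 5.07e-06). The coding transcript RRM1-201 held 76.4% ± 2.69 of RRM1 TPM in DMSO and 77.1% ± 7.66 in Chelator (SD, n = 3). RRM1-203, typed as a retained intron, was at 24.8, 26.7 and 19.8 TPM with DMSO and 0, 13.1 and 11.1 TPM with the chelator. RRM1-207, of the same type, was at 0.441, 5.78 and 0 TPM with DMSO and 13.04, 17.8 and 8.88 TPM with the chelator. Neither overlapped between groups, and transcript usage of RRM1 did not pass in edgeR (Simes adjusted p 0.732) but did in limma (0.0086).

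RRM2 (chr2:10120698-10211725, plus strand), the small subunit of dividing cells, had the highest TPM of the 9 when all its transcripts were summed, at 220.5, 248 and 228 TPM with DMSO and 303, 276 and 283 TPM with the chelator. Every Chelator library lay above every DMSO library. Its fold change on the log2 scale, 0.28 with an SE of 0.0763 and a DESeq2 adjusted p of 0.00113, is a rise of 21.2%. It did not pass when only transcripts of at least 1000 bases were summed (log2 fold change 0.12, DESeq2 adjusted p 0.114) and when the length offset was left out (0.16, DESeq2 adjusted p 0.0582). Nor did it pass when log2 fold changes were centred on their mean over all genes, which lowers every value by 0.18 (RRM2 0.10, DESeq2 adjusted p 0.322).

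Most of the difference in RRM2 TPM lay in short transcripts. Annotated RRM2 transcripts under 1000 bases, 10 of 17, held 55.7% ± 0.443 (SD, n = 3) of RRM2 TPM in DMSO and 61.2% ± 0.498 in Chelator, but only 14.9% to 16.3% and 19.2% to 21.3% of RRM2 counts. They stood at 123, 137 and 128 TPM with DMSO and 184, 169 and 175 TPM with the chelator. Those of at least 1000 bases stood at 97.8, 111 and 100.0 TPM with DMSO and 119, 107 and 108 TPM with the chelator, and here the groups overlapped.

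Among the short ones, RRM2-207, a 573-base transcript annotated with a retained intron, was at 22.9, 16.9 and 16.9 TPM with DMSO and 48.99, 44.8 and 39.6 TPM with the chelator, with no overlap. RRM2-209, of 644 bases and the same annotation type, held 42.4% ± 1.29 of RRM2 TPM in DMSO and 42.4% ± 1.33 in Chelator, and its level was 92.4, 103 and 100.1 TPM with DMSO and 130.02, 113 and 123 TPM with the chelator, again with no overlap. The fragment length the effective lengths imply also differed by group, with 258, 265 and 253 for the DMSO libraries against 219, 208 and 201 for the others, in bases. It enters the effective length of short transcripts most, and its part in these values was not tested; library handling and treatment cannot be told apart in it.

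The full-length RRM2 mRNA is annotated nearly in duplicate. RRM2-217, typed as a retained intron transcript of 3271 bases, has the same 9 introns as the canonical RRM2-201 of 3258 bases and differs by 9 bases at its start and 4 at its end. RRM2-201 received 982, 697 and 195 counts in DMSO and 0 in every Chelator library, whereas RRM2-217 received 16961, 16385 and 15653 and then 23319, 21489 and 18795. RRM2 was the 1 member called for a change in transcript usage (edgeR Simes adjusted p 4.95e-19), a call that 9.22% of 11938 genes received. Its p rested on RRM2-201 (edgeR transcript adjusted p 1.51e-19), whose share moved by -1.36 percentage points. The share change above 5 points was that of RRM2-207, 7.28 points (edgeR transcript adjusted p 0.0398). With RRM2-201 and RRM2-217 summed, the edgeR Simes adjusted p was 0.11 and the call was gone. It was also gone without DMSO replicate 1, 2 or 3 (edgeR Simes adjusted p 0.106, 0.384 and 0.377). There RRM2-201 fell under the filter of 10 counts in 3 libraries and was not tested, so these fits could not repeat its p. The joint level of RRM2-201 and RRM2-217 was 82.8, 94.1 and 85.8 TPM with DMSO and 103, 91.4 and 95.1 TPM with the chelator, and the groups overlapped. Only 0.311% as many counts as RRM2 itself, at most, went to any pseudogene named after a member (RRM2P3).

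RRM2B (minus strand), the small subunit linked to DNA damage, was far scarcer, at 14.1, 19.2 and 13.9 TPM with DMSO and 16.3, 15.1 and 15.9 TPM with the chelator. DMSO replicate 2 stood above the other libraries of both groups, and the groups overlapped. The log2 fold change was -0.013 (95% interval -0.20 to 0.17, DESeq2 adjusted p 0.938), and its sign depended on the setting: removing trends on GC content and length gave 0.21 with a DESeq2 adjusted p of 0.0166. RRM2B shares no 31-base sequence with RRM2 or any other expressed gene, so reads of the 2 small subunits are separable at that length.

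Within a library, the level of RRM2 relative to RRM1 went from 1.89, 1.84 and 2.07 in DMSO to 2.76, 2.37 and 2.596 in Chelator. These are ratios of TPM, and the groups did not overlap. The ratio of RRM2B to RRM2 was 0.0638, 0.0774 and 0.0608 with DMSO and 0.0539, 0.0546 and 0.0562 with the chelator, again with no overlap. An exact permutation test (two-sided) gave p = 0.1 for each ratio, the smallest that 3 libraries against 3 allow. With transcripts of at least 1000 bases only, the log2 difference of RRM2 to RRM1 went from 0.41 to 0.22 (exact p = 0.1) and that of RRM2B to RRM2 from -0.29 to -0.042 (exact p = 0.6).

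TK1 (chr17:78174091-78187233, minus strand), which salvages thymidine in S phase, was at 168, 183 and 172 TPM with DMSO and 229.6, 219 and 226 TPM with the chelator. The lowest Chelator library lay above the highest DMSO library. On the log2 scale the change was 0.34 with an SE of 0.0732 (adjusted p of 1.86e-05 by DESeq2), a rise of 26.7%, and 1 transcript, TK1-201, held 84.5% ± 1.68 of the level in DMSO and 84.97% ± 0.8396 in Chelator. Unlike RRM2, TK1 kept its rise with transcripts of at least 1000 bases only (log2 fold change 0.36, DESeq2 adjusted p 1.41e-08), while centring took it to 0.16 (DESeq2 adjusted p 0.0626) and removing GC and length trends to 0.20 (DESeq2 adjusted p 0.00873).

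TYMS (chr18:657653-673578, plus strand), the enzyme of new thymidylate synthesis, had 199, 213 and 191 TPM with DMSO and 194, 201 and 198 TPM with the chelator. The Chelator libraries lay inside the range of the DMSO libraries. Its log2 fold change was -0.055 (95% interval -0.19 to 0.076, DESeq2 adjusted p 0.576). After centring it passed lower (-0.23, DESeq2 adjusted p 0.001804). ENOSF1, on the opposite strand, shares 45.8% of the 31-base sequences of TYMS, and the strand setting of the library kit is not given in the sources used here, so reads from the shared stretch cannot be told apart. ENOSF1 itself had a log2 fold change of 0.13 (DESeq2 adjusted p 0.219), and TYMSOS, an antisense RNA at the TYMS start, one of 0.54 (DESeq2 adjusted p 6.07e-04). TYMS-203 held 95.1% ± 0.0721 of TYMS TPM in DMSO and 92.1% ± 2.55 in Chelator. Transcript usage of TYMS had an edgeR Simes adjusted p of 2.79e-04, which stayed under 0.05 with any 1 library left out (at most 0.0265) but not in limma (0.195). It was not called, because no share moved by more than 3.46 percentage points, under the 5 a call needed. The transcript behind it, TYMS-205, was at 0, 0.575 and 0 TPM with DMSO and 2.11, 12.1 and 7.07 TPM with the chelator, so every Chelator library was higher.

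DTYMK (chr2:241675747-241686944, minus strand), which takes dTMP from both routes, was at 65.4, 71.6 and 67.7 TPM with DMSO and 62.99, 71.2 and 69.3 TPM with the chelator, and the groups overlapped. Its log2 fold change was -0.040 (95% interval -0.19 to 0.11, DESeq2 adjusted p 0.745). It passed lower after centring (-0.22, DESeq2 adjusted p 0.0142) and with GC and length trends removed (-0.17, DESeq2 adjusted p 0.0127). TK1 rose, and TYMS and DTYMK did not pass the test; differences between the 3 genes were not tested.

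DUT (chr15:48331011-48343373, plus strand), the dUTPase, was at 127, 137 and 121 TPM with DMSO and 104, 118 and 113 TPM with the chelator. The highest Chelator library lay just under the lowest DMSO library. The change was -0.23 on the log2 scale, with an SE of 0.07204 and an adjusted p of 0.00418 by DESeq2. The adjusted p was 0.0738 with limma on log2(TPM + 1), and DUT did not pass in edgeR with a replicate block either. With transcripts of at least 1000 bases only the log2 fold change was larger, at -0.63 (DESeq2 adjusted p 3.88e-20), as it was without the length offset, at -0.48.

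Transcript usage of DUT did not pass in edgeR (Simes adjusted p 0.132), so the levels of its transcripts are given as a description. DUT-202, which starts downstream and encodes the 164-residue nuclear form, was at 61.6, 64.4 and 61.2 TPM with DMSO and 36.9, 37.2 and 38.4 TPM with the chelator. Every Chelator library was below every DMSO library, and its share of DUT TPM went from 48.7% ± 1.86 to 33.7% ± 2.07 (SD, n = 3). DUT-205, a 769-base transcript from the upstream start with an annotated reading frame of 141 codons, stood at 47.5, 52.8 and 41.7 TPM with DMSO and 46.98, 56.5 and 55.9 TPM with the chelator, overlapping, and its share went from 36.8% ± 2.02 to 47.6% ± 2.19. DUT-201, the canonical transcript of the 252-residue mitochondrial form, was scarce in both groups, at 5.16% ± 1.05 and 3.503% ± 1.02 of the level.

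Grouped by start site, the DUT transcripts that start at or after DUT-202 were at 63.3, 66.6 and 65.00 TPM with DMSO and 39.98, 43.7 and 39.9 TPM with the chelator. Those that start upstream were at 63.7, 70.7 and 55.9 TPM with DMSO and 63.8, 74.5 and 72.6 TPM with the chelator. The first set did not overlap between groups and the second did. Grouped by 3′ end instead, transcripts ending within 100 bases of the DUT-201 end were at 66.6, 72.2 and 68.2 TPM with DMSO and 39.4, 42.5 and 42.5 TPM with the chelator, against 60.4, 65.1 and 52.6 TPM with DMSO and 64.3, 75.7 and 70.03 TPM with the chelator for the rest. The same transcripts make up most of the lower set in both groupings, so a change of start and a change of end cannot be told apart. That set is also the longer one: DUT transcripts of at least 1000 bases were at 70.4, 74.1 and 69.7 TPM with DMSO and 44.7, 47.01 and 46.7 TPM with the chelator, and shorter ones at 56.6, 63.2 and 51.2 TPM with DMSO and 59.1, 71.2 and 65.9 TPM with the chelator. The part of the fragment length, which differed by group as given for RRM2, was not tested. The usage test passed in limma (Simes adjusted p 3.18e-04) and in edgeR without DMSO replicate 1 (0.0253). DUT-AS1, an antisense gene, shares 16.04% of DUT's 31-base sequences.

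**Figure D2:**
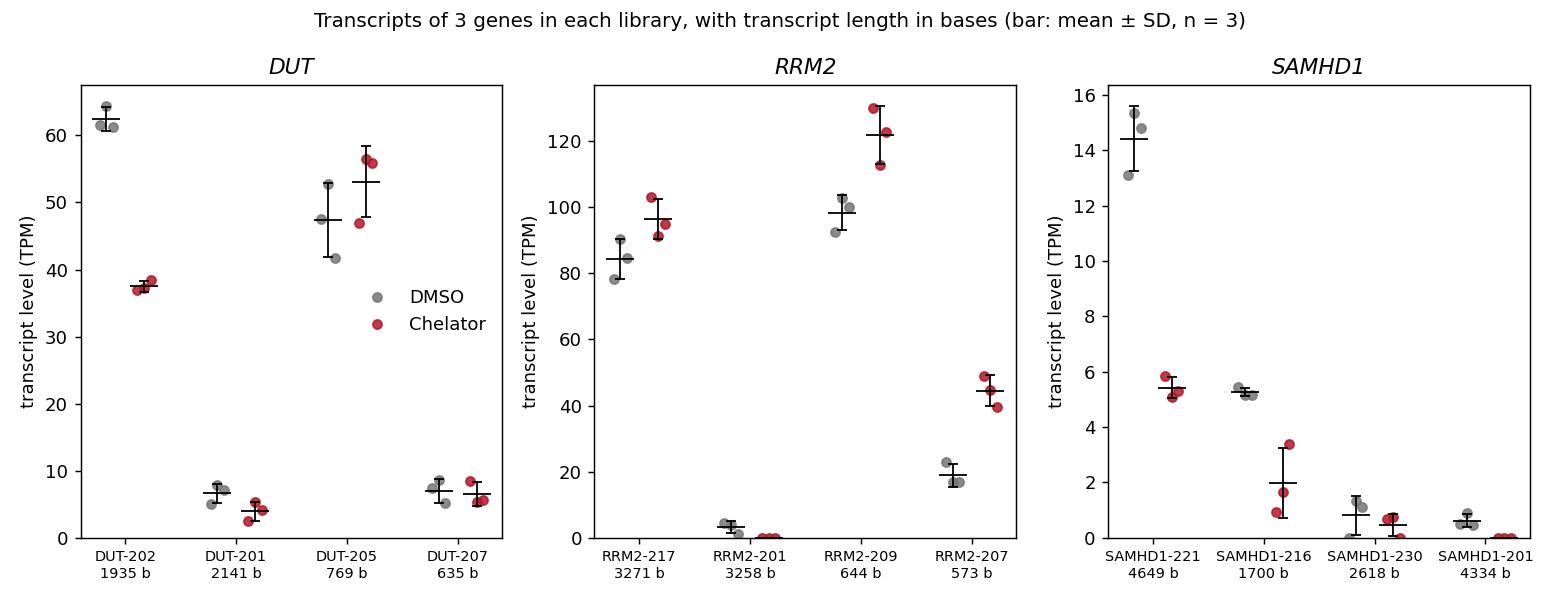
Level in TPM of 4 transcripts each of DUT, RRM2 and SAMHD1 in every library, on linear axes from 0, with transcript lengths in bases under the names and bars for the mean ± SD of 3 libraries. The mean of DUT-202 is 62.4 TPM with DMSO and 37.5 with the chelator while DUT-205 overlaps, that of RRM2-207 is 18.9 and then 44.5 TPM, and SAMHD1-221 and SAMHD1-216 are both lower with the chelator.

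The ratio of TYMS to DUT, the maker of dTMP and the supplier of its substrate, was 1.57, 1.55 and 1.58 with DMSO and 1.87, 1.703 and 1.76 with the chelator. The groups did not overlap (exact permutation p = 0.1, two-sided). The ratio of TK1 to DCK, the pair of cytosolic salvage kinases, was 11.1, 11.2 and 11.4 with DMSO and 16.1, 14.4 and 15.8 with the chelator, also without overlap (exact permutation p = 0.1). With transcripts of at least 1000 bases only, the log2 difference for TYMS to DUT went from 0.18 to 0.56, and that for TK1 to DCK from 0.46 to 0.43.

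DCK (chr4:70992538-71030914, plus strand), the deoxycytidine kinase, had 15.2, 16.3 and 15.01 TPM with DMSO and 14.2, 15.2 and 14.3 TPM with the chelator. The Chelator values reached into the DMSO range. The log2 fold change was -0.12 (95% interval -0.29 to 0.049, DESeq2 adjusted p 0.294), and it passed when the length offset was left out (-0.27, DESeq2 adjusted p 0.0127) and after centring (-0.30, 0.00212). MOB1B, which overlaps DCK on the same strand, had a log2 fold change of 0.20 (DESeq2 adjusted p 0.0634).

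SAMHD1 (chr20:36890229-36951893, minus strand), the dNTP triphosphohydrolase, showed by far the largest change of the 9. Its level was 20.2, 24.3 and 22.5 TPM with DMSO and 8.004, 8.29 and 9.71 TPM with the chelator. The highest Chelator library had less than the lowest DMSO library by a wide margin. The log2 fold change was -1.40 (SE 0.0937, DESeq2 adjusted p 4.51e-48), so the level fell to 0.380 of that in DMSO. Among the same 10341 better counted genes, SAMHD1 had rank 27 from the lowest log2 fold change, and called falls made up 1.63% of that class. Each of the 18 alternatives kept the call, with log2 fold changes from -1.57 to -1.27 and adjusted p of at most 3.54e-04, from limma.

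Both main transcripts of SAMHD1 were lower. SAMHD1-221, which encodes 626 residues, was at 13.1, 15.3 and 14.8 TPM with DMSO and 5.83, 5.100 and 5.31 TPM with the chelator. SAMHD1-216, annotated with a retained intron, was at 5.44, 5.17 and 5.17 TPM with DMSO and 0.916, 1.64 and 3.39 TPM with the chelator. Neither overlapped between groups, and SAMHD1-221 held 64.5% ± 1.37 and 63.01% ± 9.17 of SAMHD1 TPM. TLDC2, which overlaps SAMHD1 on the opposite strand, had at most 39.4 counts in any library. Transcript usage of SAMHD1 had an edgeR Simes adjusted p of 0.0245, with no tested share moving by more than 2.73 percentage points, under the 5 points a call needed. That p was lost with any 1 library left out, where it ran from 0.0758 to 1, and it was 0.799 in limma. The transcript behind it, SAMHD1-201, had 158, 234 and 121 counts with DMSO and 0 in every Chelator library. With a DMSO library left out it fell under the filter of 10 counts in 3 libraries and was not tested, so those fits could not repeat the p.

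**Figure D3:**
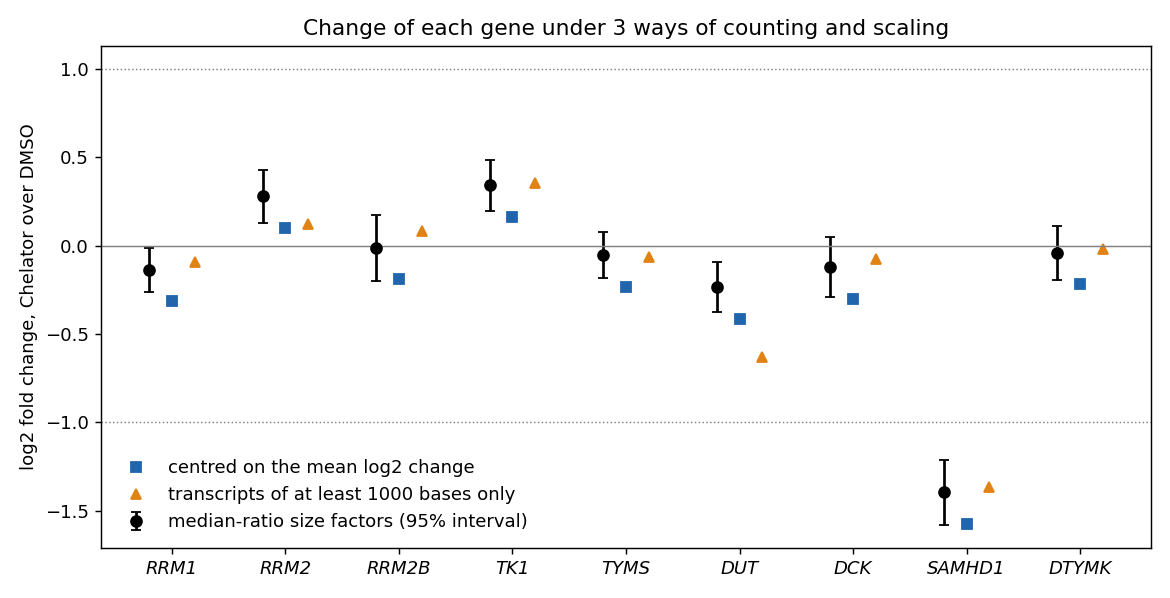
Log2 fold change of each gene, Chelator over DMSO. Black circles are the reported values with 95% intervals, blue squares the values after centring on the mean log2 change of all genes, and orange triangles the values from transcripts of at least 1000 bases; dotted lines mark a log2 fold change of 1 in either direction. SAMHD1 is past the lower line in all 3, RRM2 moves from 0.28 to 0.10 and 0.12, and DUT from -0.23 to -0.41 and -0.63.

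The order of the levels changed with SAMHD1. By mean TPM in DMSO the order was RRM2, TYMS, TK1, DUT, RRM1, DTYMK, SAMHD1, RRM2B and DCK, in which DUT and RRM1 overlapped over libraries, as did RRM2B and DCK. In Chelator TK1 stood above TYMS with no overlap, and SAMHD1 came last, at 8.67 ± 0.913 TPM (SD, n = 3) against 14.6 ± 0.525 for DCK. RRM1 and DUT were again not separable there. The first place of RRM2 rested on its short transcripts: with transcripts of at least 1000 bases only, its mean in DMSO was 103 TPM, under 191 for TYMS and 156 for TK1. DUT, at 71.4 TPM, then stood below RRM1, at 92.5, and SAMHD1 was still last in Chelator.

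The genes that reduce ribonucleotide reductase after each turnover, or supply its cofactor, numbered 11. Of these 1 rose and 4 fell at an adjusted p under 0.05 (DESeq2), beside 37.7% of all genes and 61.6% of better counted genes in either direction, with a median log2 fold change of -0.15 that turned to 0.052 without the length offset. TXN, thioredoxin, a direct reductant, rose by a log2 fold change of 0.45, or 0.27 after centring. GLRX3 and NDOR1, which serve the delivery of iron and electrons for the diiron cofactor, had -0.39 and -0.46, and GSR, glutathione reductase, -0.27.

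Of 12 regulators of reductase level, 3 rose and 4 fell, with a median log2 fold change of -0.069, and the share of better counted genes that passed in either direction was 61.6%. CCNF, cyclin F, which directs RRM2 to degradation, fell from 63.8 to 38.9 TPM (log2 fold change -0.74), and ATR, the replication stress kinase, from 12.5 to 7.08 TPM (-0.84, or -0.55 with GC and length trends removed). E2F3 had -0.30, or -0.16 with those trends removed (adjusted p 0.064 in limma). Centring gave 7 lower and limma 2. E2F1, an activator of S-phase genes, rose from 11.2 to 17.3 TPM (0.59). TP73 rose by 0.83 on the log2 scale, with a mean of 3.85 TPM in Chelator.

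Of 12 genes of the folate cycle that feeds TYMS, 7 were lower and 2 higher (median log2 fold change -0.34), beside 18.3% of all genes lower and 19.5% higher. Of better counted genes 61.6% passed in either direction. Without the length offset 8 were lower and 3 higher (median -0.22), and with transcripts of at least 1000 bases 7 lower and 4 higher (median -0.22). The summed level of the 12 genes was 863 to 987 TPM in DMSO and 952 to 989 TPM in Chelator, which overlap. SLC19A1, the reduced folate carrier, fell from 64.2 to 25.1 TPM (-1.38) and SLC46A1, the proton-coupled folate transporter, fell with a log2 fold change of -0.99. MTHFD1, of the cytosolic branch, had -0.56, whereas MTHFD2 and SHMT2, of the mitochondrial branch, rose by 0.77 and 0.35. After centring SHMT2 no longer passed (0.17, DESeq2 adjusted p 0.0615).

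The routes that make ribonucleotides, upstream of the reductase, were mostly lower. All 5 genes of new pyrimidine synthesis were lower, with a median log2 fold change of -0.66, and they stayed 5 of 5 under each alternative run. DHODH, the mitochondrial dihydroorotate dehydrogenase, fell from 14.2 to 7.002 TPM, CAD, which starts the route, from 66.2 to 37.2 TPM, and UMPS from 24.7 to 15.9 TPM. Of 13 genes of new purine synthesis, 9 fell and 1 rose (median -0.32), where 18.3% of all genes fell and 19.5% rose. For both routes, the share of better counted genes that passed in either direction was 61.6%. PRPS2, IMPDH1 and PFAS had log2 fold changes of -0.80, -0.72 and -0.68, and ADSS1, at 2.201 to 5.07 TPM, 1.17.

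The other kinases, phosphatases, deaminases and carriers of deoxynucleotides numbered 29. Of the 27 with an adjusted p 10 rose and 7 fell, against 61.6% of better counted genes in either direction (median log2 fold change 0.12, and -0.060 after centring). NT5C2, a nucleotidase, rose from 13.2 to 20.9 TPM (log2 fold change 0.63, or 0.40 without the length offset), CMPK2, a mitochondrial kinase, from 3.18 to 5.196 TPM, and TYMP, thymidine phosphorylase, from 2.15 to 3.29 TPM. DCTPP1, a pyrophosphatase that clears dCTP, fell from 139.6 to 90.1 TPM, the nucleoside transporter SLC29A1 from 87.02 to 58.6 TPM, and the mitochondrial pyrimidine carrier SLC25A33 had a log2 fold change of -0.49. Centring left 3 higher and 9 lower in the list, and leaving out Chelator replicate 3 left 6 higher. TYMP did not pass after centring (DESeq2 adjusted p 0.0896) or with GC and length trends removed (0.118).

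Of 34 replication genes, 6 rose and 16 fell (median log2 fold change -0.15), and of all genes 19.5% rose and 18.3% fell, with 61.6% of better counted genes passing in either direction. Centring gave 2 higher and 24 lower, edgeR and limma each gave 6 higher and 9 lower, and 10 were lower without DMSO replicate 3. PCNA, the sliding clamp, fell from 169 to 131 TPM, and UHRF1 and CCNE1 had -0.42 and -0.42. LIG1, a DNA ligase, rose from 43.1 to 61.1 TPM (log2 fold change 0.47, or 0.30 after centring or without the length offset and 0.26 with transcripts of at least 1000 bases), with CCNE2 at 0.40 (0.22 and a DESeq2 adjusted p of 0.0697 after centring). RFC2 had 0.43, which turned to -0.28 with transcripts of at least 1000 bases only.

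**Figure D4:**
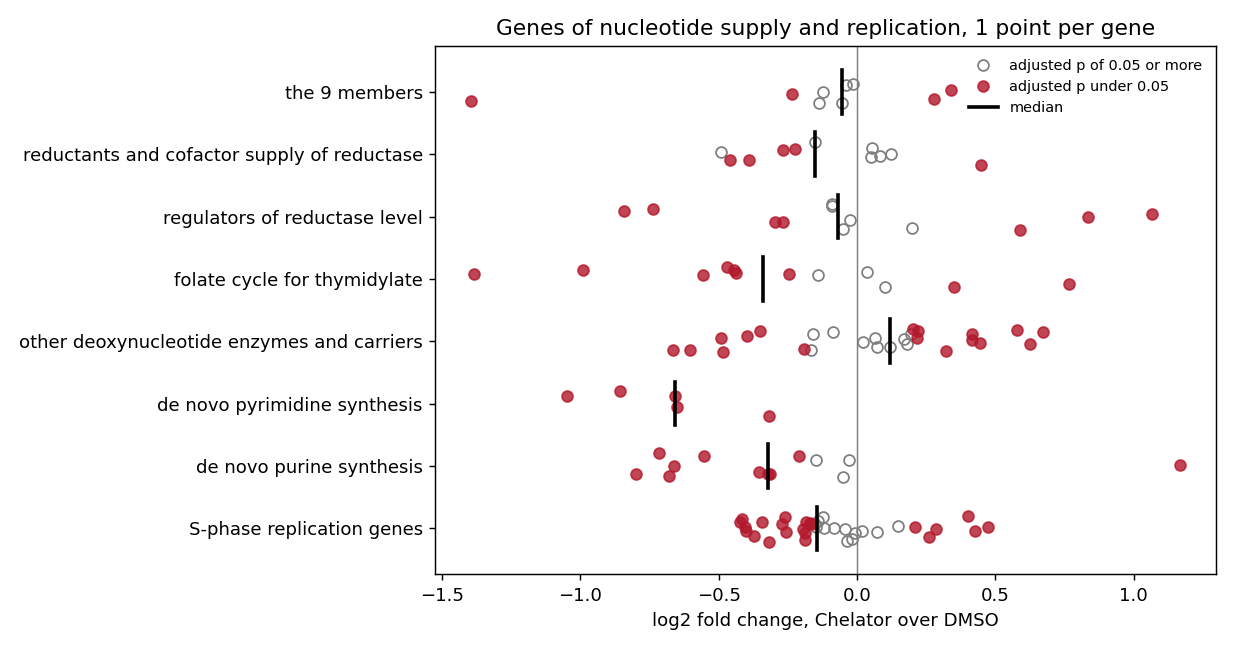
Log2 fold change, Chelator over DMSO, of the 9 genes and of the genes in 7 lists around them, 1 point per gene, filled red where the DESeq2 adjusted p is under 0.05, with a black line at each median. All 5 pyrimidine synthesis genes lie left of 0, at a median of -0.66, while SAMHD1 is the lowest point among the 9.

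The libraries carried the markers of K562. Fetal and embryonic globins, HBG1, HBG2, HBE1 and HBZ, and GATA1 were present in each. Of 11 erythroid markers 5 rose and 4 fell, where 19.5% of all genes rose and 18.3% fell. Of better counted genes 61.6% passed in either direction. The summed level of the 11 markers went from between 12754 and 14035 TPM in DMSO to between 19586 and 20717 in Chelator. Centring gave 3 higher and 5 lower, and transcripts of at least 1000 bases, among which HBE1 and HBZ have no value, gave 1 higher and 4 lower, at a median of -0.22 rather than 0.14. TFRC, the transferrin receptor, whose mRNA is stabilised when iron is scarce, rose from 256 to 1942 TPM (log2 fold change 2.89, or 2.11 without the length offset and 2.04 with transcripts of at least 1000 bases), and KLF1, LMO2 and EPOR fell, with log2 fold changes of -0.72, -0.72 and -0.44. That of LMO2 was -0.35 without the length offset and -0.43 with transcripts of at least 1000 bases. Of 12 markers of other cell types, 4 rose and 4 fell of the 10 tested, beside 37.7% of all genes passing in either direction. The summed level of these markers was 109 to 117 TPM in DMSO and 115 to 123 in Chelator, of which EPCAM made up the most, and MS4A1 was at 0 counts in every library. Single markers moved more than that sum: CD3D went from 12.8 to 39.8 TPM (log2 fold change 1.59, or 0.80 with transcripts of at least 1000 bases, which did not pass), COL1A1 from 0.589 to 1.83 TPM (1.60, or 0.83 in limma) and PECAM1 from 7.28 to 4.22 TPM (-0.81). CD3E, a T-cell marker under 1 TPM in both groups, had 1.97 and is named as the last of the 3 called higher, after its value was seen. Their part in the values above was not tested.

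Closest to RRM2 over the 6 libraries, by Euclidean distance of log2(TPM + 1) centred on the DMSO mean, were MAPRE1 (0.0482), PLIN3, SH2D2A, SAMD8 and ARHGAP18 (0.0646), of 9653 protein-coding genes averaging 500 normalized counts or more. Closest to RRM2B were RETREG3 (0.05097), AGO3, MAP3K2, VCPIP1 and ZNF619 (0.0972). No other member was among them.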

How the data were processed

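The 6 libraries, 3 DMSO and 3 Chelator, took their groups from the labels. Salmon was the authors' quantifier (version 1.10.2 per the submitters' processing notes, which name the build hg38). They deposited 1 file per library, with an estimated count, fractional where reads were shared, and a TPM for each of 252045 transcripts. TPM is the authors' estimated count divided by effective length and scaled to a fixed sum per library. The annotation used is not given in the sources used here. Transcripts were matched to GENCODE 44 on GRCh38: 251142 by version and length, 470 by another version, while 433, holding 0.139% to 0.150% of counts, went unmatched and were left out.

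Counts were summed per gene and rounded, and genes with a total above 10 were fitted in DESeq2 1.42.0 (R 4.3.3) with median-ratio size factors, average transcript length as offset and the Wald test, Benjamini-Hochberg adjusted over all genes. Normalized counts are those of this fit. Calls followed the study's stated rule: adjusted p under 0.05 with a log2 fold change beyond 1 in either direction. Transcript usage was tested with edgeR 4.0.16 (diffSpliceDGE, Simes) on transcripts with at least 10 counts in 3 libraries, and called at an adjusted p under 0.05 and a share change above 5 points. Ratios were tested by exact permutation. Alternatives used edgeR, limma 3.58.1, other scalings and filters, a replicate block and each library left out, and 2 were added after seeing the data: transcripts of at least 1000 bases only, and RRM2-201 summed with RRM2-217. The steps were tested on simulated data.

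The 9 members and all gene lists were chosen with earlier results of these data known. Named list genes are up to 3 with the largest rise and 3 with the largest fall among those that passed and had a mean normalized count of at least 100; genes nearest RRM2 and RRM2B are the 5 closest. 1 regulator gene that this rule names and 1 of the lists are not reported here. The design text calls the samples biological replicates. The p-values of the fits set the difference between groups against the spread between these replicates, estimated with information shared over genes. The exact permutation p cannot fall under 0.1. Shared sequence was judged by 31-base windows in expressed genes, and no members' protein sequences were analysed here.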

Additional observations from a re-analysis of the deposited data

How the results depend on the processing

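SAMHD1 kept its call in all 18 alternatives. Centring on the mean log2 change took RRM1 to -0.31, RRM2 to 0.10, TK1 to 0.16, TYMS to -0.23, DCK to -0.30 and DTYMK to -0.22, so that 0 members passed higher and 6 lower; genes called lower numbered 1130, and rises made up 58.7% of calls rather than 75.9%. Without the length offset RRM2 was 0.16, DUT -0.48, DCK -0.27 and DTYMK 0.032, with 1 member higher. With transcripts of at least 1000 bases RRM2 was 0.12 and RRM2B 0.080, again with 1 member higher, and the log2 ratios were 0.22 (RRM2 to RRM1), -0.042 (RRM2B to RRM2) and 0.56 (TYMS to DUT). Removing GC and length trends gave 0.21 for RRM2B, 0.20 for TK1, 0.043 for DCK and -0.17 for DTYMK, which then passed lower. limma gave -0.20 for DUT, 0.017 for RRM2B and 1 member lower, with 626 genes called higher and 171 lower. Tested against a log2 fold change of 1, 615 genes were higher and 59 lower, and with no fold threshold 9260 were called. edgeR gave 0.030 for RRM2B and 0.0048 for DTYMK, and TMM factors 0.030 and 0.0048. The causes were not tested.

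Leaving out 1 library moved RRM1 between -0.17 and -0.12, passing without DMSO replicate 3 (-0.17, DESeq2 adjusted p 0.0432), and RRM2B between -0.061 and 0.061, with values above 0 without DMSO replicate 2 (0.061) or Chelator replicate 2 (0.038). Members called for transcript usage went from 1 to 0 without DMSO replicate 2 or 3 and with RRM2-201 and RRM2-217 summed, changed from RRM2 to DUT without DMSO replicate 1, and numbered 3 (DUT, RRM1, RRM2) in limma. RRM2-201 did not enter the usage test when a DMSO library was left out. Same-numbered libraries deviated together with correlations of -0.0036, 0.13 and 0.094, so the numbers were not taken as pairs. The replicate block in DESeq2 changed no member's call, while in edgeR it gave DUT -0.19 with an adjusted p of 0.0675, 1 member lower, RRM2B 0.033 and DTYMK 0.0049.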
